A study of Arabidopsis thaliana with 9 samples.

Results

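The comparison was between 2 mutants of Arabidopsis thaliana, bbx11-1 and pif4-2, set directly against each other without the wild type. It rests on 6 of the 9 libraries of the study, 3 of bbx11-1 and 3 of pif4-2, and on 19052 of 33602 loci, those whose mean reached 1 FPKM in either mutant. FPKM divide the fragments counted over a gene by its length and by the reads of the library, so that levels can be set against each other between genes and between libraries. All seedlings were 4 d old and had been kept in constant red light of 94 μmol/m2/s, on medium with sucrose, and whole seedlings gave the RNA. Both mutants are in the Col-0 background, which was the third genotype of the study, and each is represented by a single mutant line. The labels call the 3 libraries of a genotype biological replicates, and whether a replicate was a separate plate or sowing is not given in the sources used here.

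PIF4 is a basic helix-loop-helix transcription factor that promotes elongation growth, largely through auxin genes, and binds G-box (CACGTG) and PBE-box (CACATG) letters in promoters. Light-activated phytochrome B, the main red light receptor, binds PIF4 and sends it to degradation. BBX11 is a B-box zinc finger protein that promotes the seedling's light development. The question put to these data is which functions and gene families separate seedlings that lack one of these regulators from seedlings that lack the other.

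Promoter stretches are shown first because 10 of the 11 called genes of late seed development, described further on, hold the G-box letters. AT3G15670 is the exception. The 11 were put together after the calls. The letters also stand in 26.5% of the 68 tested genes of that kind and in 7.52% of all tested protein-coding nuclear genes. Binding of PIF4 to these promoters was not tested. Each stretch is 30 bases, read on the strand of its gene 5′ to 3′ from the RefSeq TAIR10.1 genome, with the 6 letters of the G-box in capitals.
LEA4-5: aaggctttccaaCACGTGtaggaccaataa
AtLEA4-1: attgaaacaagaCACGTGgcgacattaata
GEA6: aataaagtcagaCACGTGgcatgtcaccaa
ECP63: gcatgaaaagtcCACGTGtcataccacgtc
XERO1: ttacgtaatcgcCACGTGtgtcacttcaac
AT3G17520: ttgtttgtgtaaCACGTGtcaagaaccact
AT4G21020: tccaatgtcgaaCACGTGtacgttcaccca
The stretch of LEA4-5 lies at chr5:2090540-2090569 on the minus strand, that of AtLEA4-1 at chr1:11774368-11774397 on the plus strand, and that of GEA6 at chr2:16780390-16780419 on the minus strand. For ECP63 it is chr2:15358752-15358781 (minus), for XERO1 chr3:18941851-18941880 (plus), for AT3G17520 chr3:6000584-6000613 (minus) and for AT4G21020 chr4:11228062-11228091 (plus). In each the first C of the motif is 39 to 154 bases before the annotated start of the gene.

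The second set shows mature microRNAs of the called microRNA genes, with the seed (bases 2 to 8) in capitals, from the same genome.
miR170-3p: uGAUUGAGccgugucaauauc
miR171b-3p: uUGAGCCGugccaauaucacg
miR160c-5p: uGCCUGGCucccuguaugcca
miR395e: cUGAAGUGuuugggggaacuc
These 21-base sequences lie on the minus strand at chr5:26411594-26411614, chr1:3961367-3961387, chr5:19009158-19009178 and chr1:26272786-26272806. No seed is shared among the 4.

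The deposited values carry no read counts. The spacing of the low values in genes shorter than 500 nt corresponded to between 17.3 and 19.5 M reads for bbx11-1 and between 18.7 and 22.2 M for pif4-2. Of the 6 libraries, replicate 1 of bbx11-1 stood apart from the other libraries of its genotype. On the second principal component (23.8% of the variance) it was at 24.2 while the other 2 were at -13.8 and -19.8, and the pif4-2 libraries were between 0.15 and 5.86. Chloroplast-encoded loci took 5.83% of the FPKM in that library, 3.87% and 3.75% in the others of bbx11-1 and 5.10% to 6.20% in pif4-2. The 13 root genes summed to 1920 FPKM there, 2461 and 2493 FPKM in the other bbx11-1 libraries and between 1892 and 1978 FPKM in pif4-2, nearly all of it from PYK10, a root glucosidase. Replicate 1 of Col-0, which entered no test, departed from its group in the same way. Its chloroplast share was 4.7%, against 3.65% and 3.36% in replicates 2 and 3. Its root genes summed to 1878 FPKM, against 2461 and 2423 FPKM. A batch shared by Col-0 and bbx11-1 but not by pif4-2 was not tested and cannot be told from the labels. None of the 13 root genes was listed at 0 in all 6 libraries. The nuclear photosystem, antenna and RBCS genes summed to between 121086 and 133626 FPKM in bbx11-1 and those of pif4-2 to between 123511 and 127552 FPKM, so green tissue was present in every library. In bulk samples fewer cells of a type and less RNA per cell cannot be told apart.

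Differences were tested with limma on log2(FPKM + 0.5), and a locus counts as called where its p, adjusted by Benjamini-Hochberg over all 19052 loci, was below 0.05 and its levels differed at least 2-fold. By this rule 129 loci (0.677% of those tested) differed, of which 83 (0.436%) were higher in bbx11-1 and 46 (0.241%) higher in pif4-2. At an adjusted p below 0.05 and any fold, 599 loci (3.14%) differed, 341 higher in bbx11-1 and 258 higher in pif4-2. The 3 libraries of one mutant lay entirely above the 3 of the other for 23.4% of tested loci, and for every one of the 129. The median difference over all tested loci was 0.02 on the log2 scale. Of the 19052 loci 10246 were higher in bbx11-1 and 8806 were not, and direction counts of lists stand beside these. Without bbx11-1 replicate 1, 148 loci were called, and 110 of the 129 were among them. The number higher in pif4-2 fell to 30 without replicate 1 of pif4-2.

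**Figure D1:**
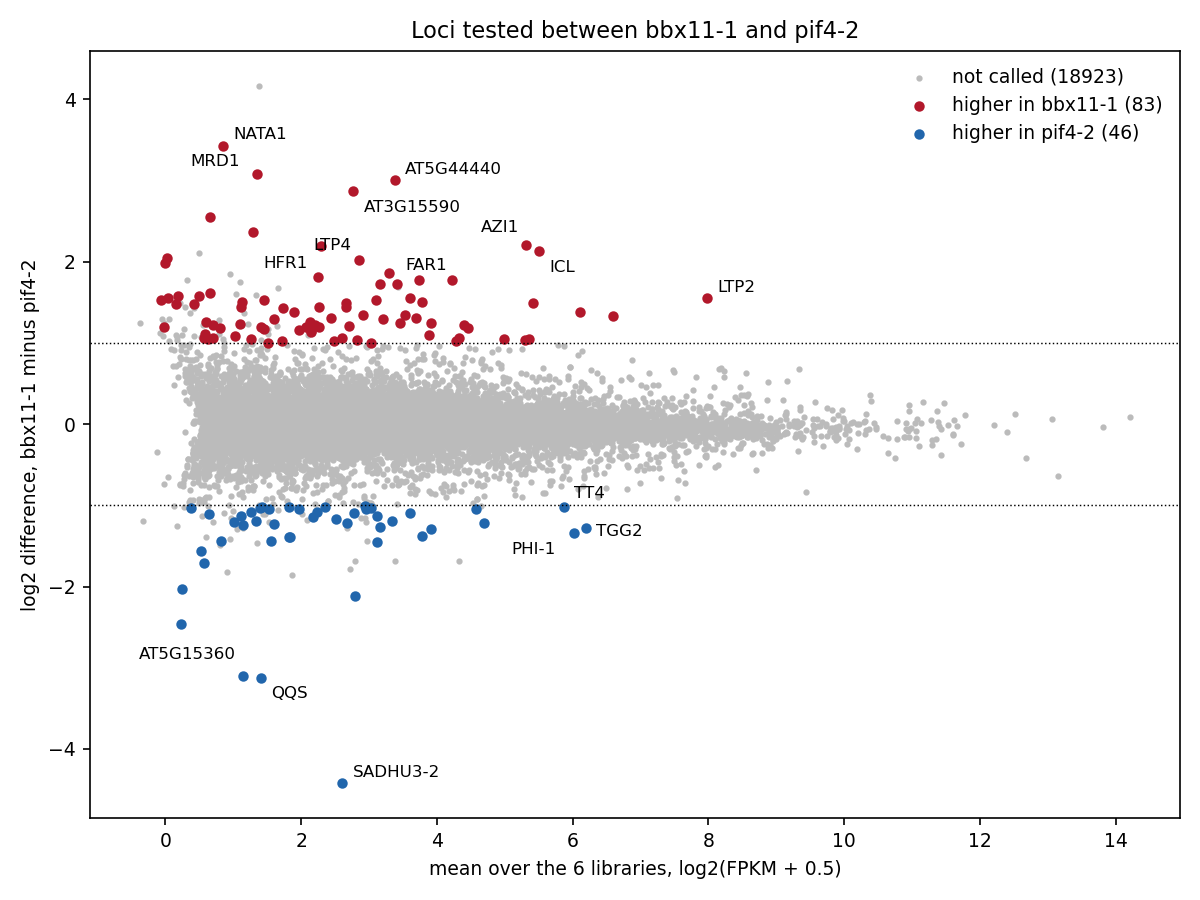
Mean over the 6 libraries as log2(FPKM + 0.5) on the x axis and the log2 difference of bbx11-1 minus pif4-2 on the y axis, 1 point per tested locus. The dotted lines mark a fold of 2. Red points are the 83 loci called higher in bbx11-1 and blue points the 46 called higher in pif4-2, and SADHU3-2 at -4.42 is the lowest of all.

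The mutated genes themselves differed by less than 2-fold. PIF4 (AT2G43010, chr2:17886101-17889087) was at 31.0, 28.9 and 28.6 FPKM in bbx11-1 and at 16.88, 16.25 and 17.51 FPKM in pif4-2, a log2 difference of 0.79 (SE 0.07, limma, adjusted p = 0.00166). BBX11 (AT2G47890, chr2:19607996-19610287) was at 10.7, 9.39 and 7.66 FPKM in bbx11-1 and at 17.04, 16.41 and 15.65 FPKM in pif4-2, a log2 difference of -0.80 (SE 0.12, limma, adjusted p = 0.00865). BBX11 overlaps the neighbouring gene AT2G47895, and the strand setting of the counting is not given in the sources used here. In both cases the mutant's own libraries were the lower ones with no overlap, as the labels have it. In Col-0, which entered no test, PIF4 was at 35.2, 30.1 and 25.7 FPKM, and BBX11 at 15.72 and 16.37 FPKM in replicates 1 and 2 but at 78.24 FPKM in replicate 3. Transcript remained in each mutant over the gene as counted, and where the mutations lie within the genes is not given in the sources used here. PHYB did not pass the test (22.9 ± 1.02 against 20.8 ± 1.32 FPKM, SD, n = 3, limma, adjusted p = 0.388).

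Genes of growth in shade and of auxin response were among those higher in bbx11-1. HFR1, an atypical bHLH protein that holds PIF proteins in check, was at 6.85, 8.73 and 9.82 FPKM in bbx11-1 and at 2.42, 2.06 and 1.65 FPKM in pif4-2. The lowest bbx11-1 library was above the highest of pif4-2, and the log2 difference was 1.81 (SE 0.16, limma, adjusted p = 0.00161). HB52, a homeodomain-leucine zipper factor, was at 10.36, 10.01 and 9.30 FPKM against 3.54, 3.45 and 3.00 FPKM, with a log2 difference of 1.44 (limma, adjusted p = 3.5e-04). HEC1, another bHLH factor, had a log2 difference of 1.13 (limma, adjusted p = 0.00545). Of the 8 tested shade-marker transcription factors only HFR1 was called.

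Among 23 tested Aux/IAA repressors, short-lived proteins that hold back auxin response, 21 were higher in bbx11-1, against 10246 of all 19052 loci. Their median log2 difference was 0.18. IAA34 was the only one called (4.35%), at 1.15, 0.92 and 1.34 FPKM in bbx11-1 and at 0.10, 0.09 and 0 FPKM in pif4-2, and it overlaps AT1G15060. IAA19 passed the adjusted p but not the fold, at 7.94 ± 1.39 against 4.32 ± 0.54 FPKM (SD, n = 3), a log2 difference of 0.80 (limma, adjusted p = 0.0173). IAA29, at 1.81 ± 0.60 against 0.86 ± 0.36 FPKM, and YUC8, an auxin synthesis enzyme at 1.66 ± 0.20 against 0.85 ± 0.19 FPKM (SD, n = 3), missed it (limma, adjusted p = 0.181 and 0.0849). Of 56 tested SAUR genes, small auxin-induced growth proteins, SAUR19 was called (3.52 ± 0.32 against 1.27 ± 0.31 FPKM, SD, n = 3). In SAUR19, 18.5% of 50-base stretches occur elsewhere in the genome, so that its reads are uncertain. None of the 6 auxin synthesis, 6 GH3, 15 auxin transporter, 15 brassinosteroid or 7 gibberellin oxidase genes tested was called.

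Cell wall loosening genes went both ways. Expansins loosen the wall, and of 23 tested 4 were higher in bbx11-1 at an adjusted p below 0.05 (EXPA11, EXP3, EXPA1 and EXPA10) and 1, EXLA1, was higher in pif4-2. EXPA11 alone passed the fold, at 44.53, 62.45 and 63.26 FPKM in bbx11-1 and 24.6, 27.4 and 29.1 FPKM in pif4-2, and it was not called without replicate 2 or 3 of bbx11-1 or replicate 1 of pif4-2. Of 26 XTH enzymes, which cut and rejoin xyloglucan chains, 6 were higher in bbx11-1 and 2 higher in pif4-2 at that adjusted p. Over all tested loci 3.14% passed it. XTH33 was called (5.43 ± 1.30 against 2.11 ± 0.11 FPKM, SD, n = 3). The touch-induced TCH4 went the other way, with a log2 difference of -0.91 (limma, adjusted p = 0.0018). Both gene lists had medians near that of all loci, 0.03 for expansins and -0.05 for XTH enzymes.

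PIF, B-box, photoreceptor and clock genes had no call. All 6 PIF genes were higher in bbx11-1 (median log2 difference 0.40), 2 of them at an adjusted p below 0.05, PIF4 and PIL5. These figures count PIF4 itself, the gene mutated in pif4-2, whose lower level there goes with the genotype. The B-box list likewise holds BBX11, the gene mutated in bbx11-1, which was higher in pif4-2. Of 27 B-box genes 19 were higher in bbx11-1, and 5 of those passed the adjusted p, led by BBX30 at 4.88 ± 0.97 FPKM against 2.42 ± 0.63 FPKM (SD, n = 3). Phytochrome A was at 53.87, 57.90 and 61.15 FPKM in bbx11-1 against 37.55, 40.70 and 38.54 FPKM in pif4-2, and HY5, a bZIP factor of light development, had a log2 difference of 0.37 (limma, adjusted p = 0.00584 and 0.0300). Clock genes were mostly higher in bbx11-1 (22 of 26, median 0.22), with EPR1, PRR9 and PRR7 past the adjusted p. Over all tested loci 10246 of 19052 were higher in bbx11-1, and 3.14% passed the adjusted p in either direction. On the log2(FPKM + 0.5) scale no member of these lists reached a 2-fold difference with an adjusted p below 0.05.

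**Figure D2:**
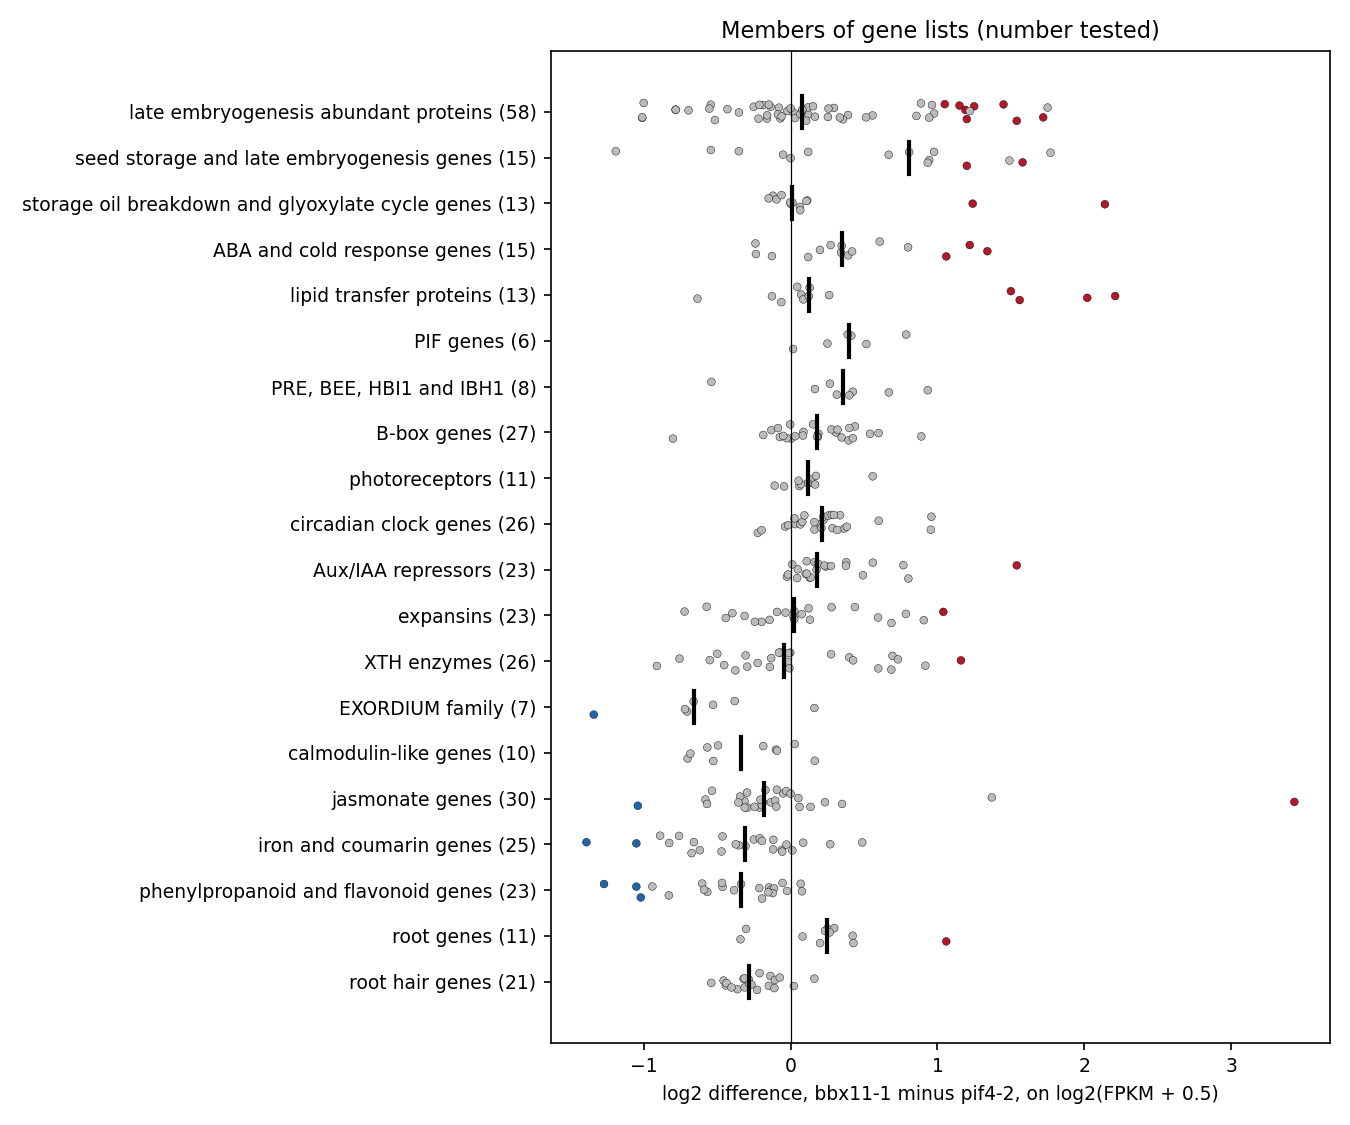
Log2 difference of bbx11-1 minus pif4-2 (x axis) for the tested members of 20 gene lists (y axis, number tested in brackets). Points are genes, red or blue where called higher in bbx11-1 or in pif4-2, and black bars are medians, which run from -0.66 in the EXORDIUM family to 0.81 in the seed list.

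Of the lists examined, the one with the most calls higher in bbx11-1 was of seed maturation. Late embryogenesis abundant (LEA) proteins accumulate as seeds dry and protect cells from water loss. Of 58 tested genes with that product name 8 were called (13.8% against 0.677% of all loci), all of them higher in bbx11-1. This list was drawn up after the values had been seen, and it also holds hydroxyproline-rich proteins that share only the name. Its median log2 difference was 0.08. In the seed storage and LEA list 2 of 15 tested genes were called, GEA6 and ECP63, and its median was 0.81. With XERO1, a dehydrin in neither list that was added after its value had been seen, this gave 11 called seed genes.

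LEA4-5 was at 16.95, 16.79 and 10.01 FPKM in bbx11-1 and at 4.59, 5.34 and 3.88 FPKM in pif4-2, a log2 difference of 1.54 (SE 0.20, limma, adjusted p = 0.00578). AT3G15670 was at 22.43, 18.45 and 9.30 FPKM against 4.22, 5.31 and 3.83 FPKM, with a log2 difference of 1.72 (limma, adjusted p = 0.0136). GEA6, the LEA protein also known as EM6, was at 8.74, 6.20 and 5.75 FPKM against 2.70, 3.91 and 1.77 FPKM. In all 3 genes the libraries of the mutants were apart, and bbx11-1 replicate 3 was the nearest to pif4-2. CRA1 and OLEO2, a seed storage globulin and an oil body protein, passed the adjusted p below 2-fold (log2 differences 0.81 and 0.93). The 2S albumin SESA1 was at 6.42 FPKM in pif4-2 replicate 1 and at 0 to 0.08 FPKM in the other 5 libraries, and SESA2 was at 2.17 FPKM there against 0 to 0.15 FPKM. LEA4-5 and AT3G17520 were called with any single library left out, AT3G15670 was lost without pif4-2 replicate 1 or 3, and GEA6 was lost without bbx11-1 replicate 2 or 3 or pif4-2 replicate 1 or 3. The LEA count was 6 without bbx11-1 replicate 1, and 2 without pif4-2 replicate 1 or without pif4-2 replicate 3. With all loci above 0 tested it was 3, and the seed list had 0 calls.

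**Figure D3:**
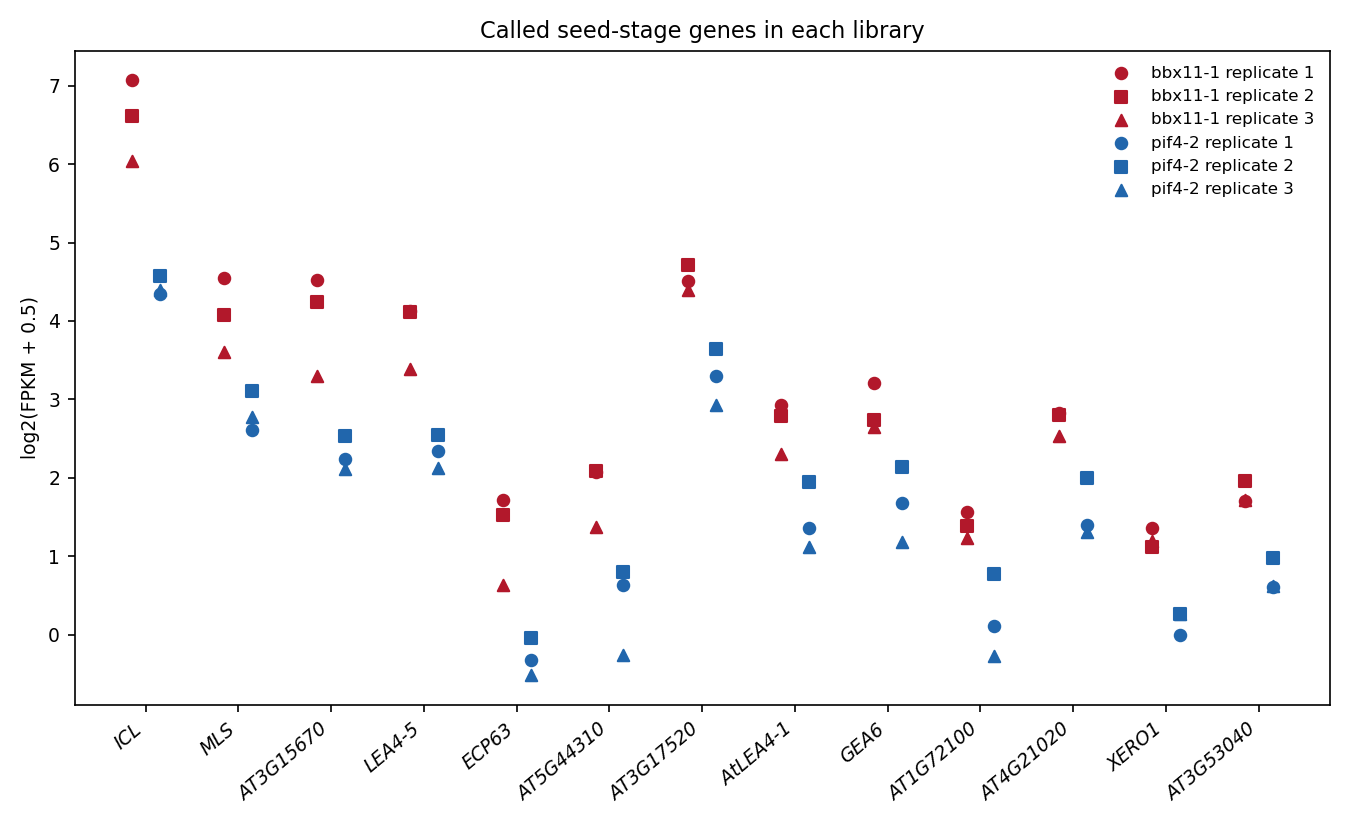
Values as log2(FPKM + 0.5) (y axis) of 13 called genes of seed maturation and of the glyoxylate cycle (x axis) in each of the 6 libraries, red for bbx11-1 and blue for pif4-2, with a marker shape for each replicate number. In each gene all red markers are above all blue markers, and ICL has the highest values of both mutants.

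Both enzymes particular to the glyoxylate cycle, which turns stored seed oil into sugar precursors, were called as well. ICL, isocitrate lyase, was at 133.40, 97.26 and 65.45 FPKM in bbx11-1 and at 19.89, 23.33 and 20.45 FPKM in pif4-2, a log2 difference of 2.14 (SE 0.21, limma, adjusted p = 0.00206). MLS, malate synthase, was at 22.8, 16.4 and 11.7 FPKM against 5.63, 8.14 and 6.35 FPKM, a log2 difference of 1.24 (limma, adjusted p = 0.0196). ICL was called with any library left out, and MLS was lost without bbx11-1 replicate 2, without pif4-2 replicate 1 or 3, and with all loci above 0 tested. The other 11 tested genes of oil breakdown, a list chosen after these calls, had no call, and the list's median was 0.01.

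ABA and cold response genes had 3 calls of 15 (20% against 0.677% of all loci), all higher in bbx11-1, and a median log2 difference of 0.35. LTI78 (RD29A) was at 31.29, 33.12 and 30.82 FPKM in bbx11-1 and at 12.96, 14.67 and 12.51 FPKM in pif4-2 (log2 difference 1.22, limma, adjusted p = 3.27e-04). Its neighbour LTI65 (RD29B), 1186 bases away, had a log2 difference of 1.34, and COR413IM1, a chloroplast membrane protein of cold response, had 1.06. Without replicate 3 of pif4-2 the call of COR413IM1 was lost.

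In the promoters, taken as the 250 bases before the annotated start, CACGTG stood in 24.1% of the 79 genes called higher in bbx11-1, in 12.5% of the 40 called higher in pif4-2, and in 7.52% of all 18459 tested protein-coding nuclear genes. CACATG, read on both strands, stood in 19.0%, 7.5% and 11.1%. Of the 11 called seed genes 10 held CACGTG, against 26.5% of 68 tested seed and LEA genes, a set that includes the 11. The 11 were put together after the calls, and XERO1, which holds the motif, was added by hand. Of the other 68 genes called higher in bbx11-1 9 held it (13.2%). These shares are descriptions, and the first fell to 9.26% without pif4-2 replicate 1 and to 10.5% without pif4-2 replicate 3. It was 15.1% without bbx11-1 replicate 2.

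Lipid transfer proteins, small secreted carriers of lipids in surface layers, gave 4 calls among 13 tested genes (30.8% against 0.677% of all loci). All 4 were higher in bbx11-1 and called with any library left out. The list takes in AZI1 and EARLI1 by name beside LTP symbols, and it was chosen with earlier results of these data known. LTP2, the most abundant called gene, was at 380.37, 558.41 and 385.19 FPKM in bbx11-1 and at 122.95, 154.46 and 168.35 FPKM in pif4-2, a log2 difference of 1.56 (SE 0.16, limma, adjusted p = 0.0026). LTP4 was at 12.6, 16.4 and 13.3 FPKM against 2.61, 4.58 and 2.43 FPKM, a log2 difference of 2.02 (limma, adjusted p = 0.00206). AZI1, which takes part in systemic immunity, was at 107.8, 97.2 and 59.2 FPKM against 19.7, 16.8 and 17.8 FPKM, a log2 difference of 2.21 (SE 0.19, limma, adjusted p = 0.00161). AZI1, EARLI1, AT4G12490 and AT4G12500 are neighbours on chromosome 4 and all 4 were called higher in bbx11-1. In AT4G12490 and AT4G12500, 6.78% and 5.45% of 50-base stretches occur elsewhere, so reads of near-identical copies could be shared. In the wider list of bifunctional inhibitor and lipid transfer proteins by product name, drawn up after the values had been seen, 4 of 57 were called (7.02%), 40 were not higher in bbx11-1 and the median log2 difference was -0.10. AT4G12500 was at 2.19, 1.25 and 0.67 FPKM against 0.27, 0 and 0.06 FPKM, and its call was lost without bbx11-1 replicate 2 and without each of the pif4-2 libraries.

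Of 37 tested lipid desaturase and wax genes 2 were called (5.41%), FAR1 and ADS4, and 20 of the 37 were higher in bbx11-1, with a median log2 difference of 0.01. FAR1 (AT5G22500), a reductase that makes fatty alcohols for suberin, was at 23.66, 48.61 and 33.83 FPKM in bbx11-1 and at 8.45, 9.45 and 10.92 FPKM in pif4-2 (log2 difference 1.77, limma, adjusted p = 0.00518). ADS4, an acyl desaturase, was at 9.04, 10.94 and 10.50 FPKM against 2.63, 3.54 and 3.75 FPKM. CASP5, a scaffold protein of the root's Casparian strip, was the only called gene of the root list, at 6.76, 8.81 and 9.63 FPKM against 3.94, 4.04 and 3.23 FPKM. It overlaps AT5G15300. Its call was lost without bbx11-1 replicate 3 or pif4-2 replicate 3, and the root list as a whole was higher in bbx11-1 replicates 2 and 3, as given above, with a median log2 difference of 0.25. The part of root tissue in the CASP5 and FAR1 differences was not tested. Among gibberellin-regulated GASA peptides, a list drawn up after the values had been seen, AT2G14900 and AT5G14920 were called higher in bbx11-1 and GASA5 higher in pif4-2, of 9 tested. AT2G14900 was at 22.27, 20.72 and 25.34 FPKM against 7.94, 8.12 and 6.92 FPKM, and the call of GASA5 was lost without bbx11-1 replicate 2 or pif4-2 replicate 1 or 3.

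Several other genes had large differences in this direction. MRD1 was at 8.03, 6.45 and 6.45 FPKM in bbx11-1 and at 0.60, 0.30 and 0.28 FPKM in pif4-2, a log2 difference of 3.08 (SE 0.17, limma, adjusted p = 1.45e-04), and it overlaps AT1G53490. AT3G15590, a tetratricopeptide repeat protein, was at 19.05, 16.13 and 18.64 FPKM against 2.15, 1.94 and 1.96 FPKM, a log2 difference of 2.87 (SE 0.10, limma, adjusted p = 8.44e-06). NATA1, an acetyltransferase of the jasmonate list, was at 13.55, 4.77 and 2.30 FPKM against 0.16, 0 and 0 FPKM. AT5G44440, a berberine bridge enzyme-like oxidase, was at 14.52, 44.59 and 37.56 FPKM against 4.08, 2.77 and 2.84 FPKM. In NATA1 bbx11-1 replicate 1 was by far the highest and in AT5G44440 it was the lowest of the 3, yet neither gene overlapped between the mutants. ATPMEPCRD, a pectin methylesterase, was the single called locus of 22 tested within 50 kb of PIF4, at 18.65, 22.50 and 20.24 FPKM against 6.34, 7.25 and 6.27 FPKM. Within 50 kb of BBX11 the single called locus of 28 was AT2G47780, at 15.62, 11.36 and 5.46 FPKM against 1.29, 1.87 and 2.33 FPKM, and its call was lost without pif4-2 replicate 1. AT2G47780 overlaps AT2G47790.

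Flavonoid genes were among the calls higher in pif4-2. Chalcone synthase (TT4), the first enzyme of flavonoid synthesis, was at 44.81, 48.64 and 30.55 FPKM in bbx11-1 and at 91.33, 67.21 and 91.54 FPKM in pif4-2, a log2 difference of -1.02 (SE 0.18, limma, adjusted p = 0.0200). TT4 overlaps AT5G13940. DFR, which acts later on the way to anthocyanins, was at 6.13, 6.78 and 3.47 FPKM against 12.91, 11.35 and 16.35 FPKM, and LDOX, the next step, was at 5.05, 6.14 and 3.80 FPKM against 11.28, 7.83 and 13.84 FPKM. Of 23 tested phenylpropanoid and flavonoid genes these 3 were called (13% against 0.677% of all loci). In that list 21 were higher in pif4-2 and the median log2 difference was -0.34. All 3 calls were lost without bbx11-1 replicate 3, without pif4-2 replicate 1, without pif4-2 replicate 3, and when all loci above 0 were tested in place of those reaching 1 FPKM.

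Iron uptake and coumarin genes had 2 calls of 25 (8% against 0.677% of all loci), both higher in pif4-2. Of the 25 genes 21 were higher there (median log2 difference -0.31). CYP82C4, which makes the iron-binding coumarin sideretin, was at 1.26, 2.11 and 1.86 FPKM in bbx11-1 and at 5.37, 5.16 and 5.33 FPKM in pif4-2, and was called with any library left out. NAS2, a nicotianamine synthase, was at 1.38, 1.75 and 1.43 FPKM against 3.31, 3.72 and 3.97 FPKM, and was lost without bbx11-1 replicate 1 or pif4-2 replicate 3. IRT1, the main iron transporter of the root, did not pass (log2 difference -0.83, limma, adjusted p = 0.125). Root hair genes were higher in pif4-2 in 19 of 21 (median -0.28) with no call, and their sums were 109.57, 147.37 and 158.11 FPKM in bbx11-1 and 168.88, 172.00 and 152.18 FPKM in pif4-2. The part of root hairs in the iron genes' difference was not tested.

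Among the stress and defence lists calls were few in number. Over all loci the share was 0.677%, and a single call puts a list of this size above it. Glucosinolate genes had 1 call of 28 (3.57%) and a median log2 difference of 0.02. Jasmonate genes had 1 call in each direction of 30 (6.67%). Of 8 ZAT and AZF zinc fingers, with 0 higher in bbx11-1, ZAT11 was called (12.5%). The call of ZAT11 was lost in 5 of the 6 fits with 1 library left out. None of 7 salicylic acid and PR genes or of 8 defensins with PDF symbols was called. AT1G34047, defensin-like by product name and outside that list, was called higher in pif4-2. It was at 0.73, 1.23 and 0.89 FPKM in bbx11-1 and at 2.10, 3.34 and 3.40 FPKM in pif4-2. TGG2, a myrosinase that splits glucosinolates, was at 36.47, 55.43 and 50.21 FPKM in bbx11-1 and at 108.68, 110.66 and 122.78 FPKM in pif4-2, a log2 difference of -1.28 (SE 0.14, limma, adjusted p = 0.00288). CYP81F2, an indole glucosinolate hydroxylase that the list of 28 does not hold, was at 8.73, 7.81 and 11.38 FPKM against 24.32, 22.99 and 22.17 FPKM. WRKY70, a transcription factor of salicylic acid defence, was at 5.71, 4.83 and 5.64 FPKM against 12.29, 10.69 and 14.32 FPKM and was the only call among 49 WRKY genes (2.04%). In these 3 genes the mutants were far apart and each call held with any library left out. LOX4, a lipoxygenase of jasmonate synthesis, was lost without bbx11-1 replicate 2 or pif4-2 replicate 2. The thionin AT1G66100, a small antimicrobial peptide, was at 4.59, 5.16 and 4.52 FPKM against 14.74, 12.32 and 14.60 FPKM, next to the called TIR-type gene AT1G66090. With THI2.2, whose call was lost without bbx11-1 replicate 1 or pif4-2 replicate 1 or 3, 2 of 5 tested thionins were called (40%), a list drawn up after the values had been seen.

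EXORDIUM-family genes, linked to growth under brassinosteroid, were lower in bbx11-1 in 6 of 7, with a median log2 difference of -0.66. PHI-1 alone was called, at 41.74, 38.13 and 41.60 FPKM in bbx11-1 and at 126.11, 93.53 and 92.62 FPKM in pif4-2, a log2 difference of -1.34 (SE 0.12, limma, adjusted p = 0.00161). EXO, EXL5 and EXL3 passed the adjusted p below 2-fold. Of 10 calmodulin-like genes 4, among them the touch genes TCH2 and TCH3, passed it with higher levels in pif4-2 and none was called.

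SADHU3-2, a retroposon-derived locus, had the largest difference of all. It was at 0.95, 0.63 and 0.90 FPKM in bbx11-1 and at 21.13, 32.93 and 30.58 FPKM in pif4-2, a log2 difference of -4.42 (SE 0.17, limma, adjusted p = 1.43e-05). No other of the 9 tested SADHU elements was called. QQS, an orphan gene that affects starch content, was at 0.46, 0.35 and 0.39 FPKM against 7.16, 6.11 and 8.97 FPKM, and AT5G15360 at 0.21, 0.20 and 0.38 FPKM against 5.16, 6.26 and 6.66 FPKM. The non-coding RNA AT4G04223 was higher in pif4-2 too, but 71.5% of its 50-base stretches occur elsewhere in the genome. AT3G42090, an annotated pseudogene, was listed at 0 in all bbx11-1 libraries and at 3.26, 2.18 and 1.58 FPKM in pif4-2. It has 114 exon bases, where 1 read was worth 0.395 to 0.507 FPKM, and at most 6.9 reads in a library, so its levels are thin. AT5G37950, a glycosyltransferase, was listed at 0 in all pif4-2 libraries and at 1.73, 1.17 and 1.59 FPKM in bbx11-1. In AT5G37950, 10.3% of 50-base stretches occur elsewhere in the genome.

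**Figure D4:**
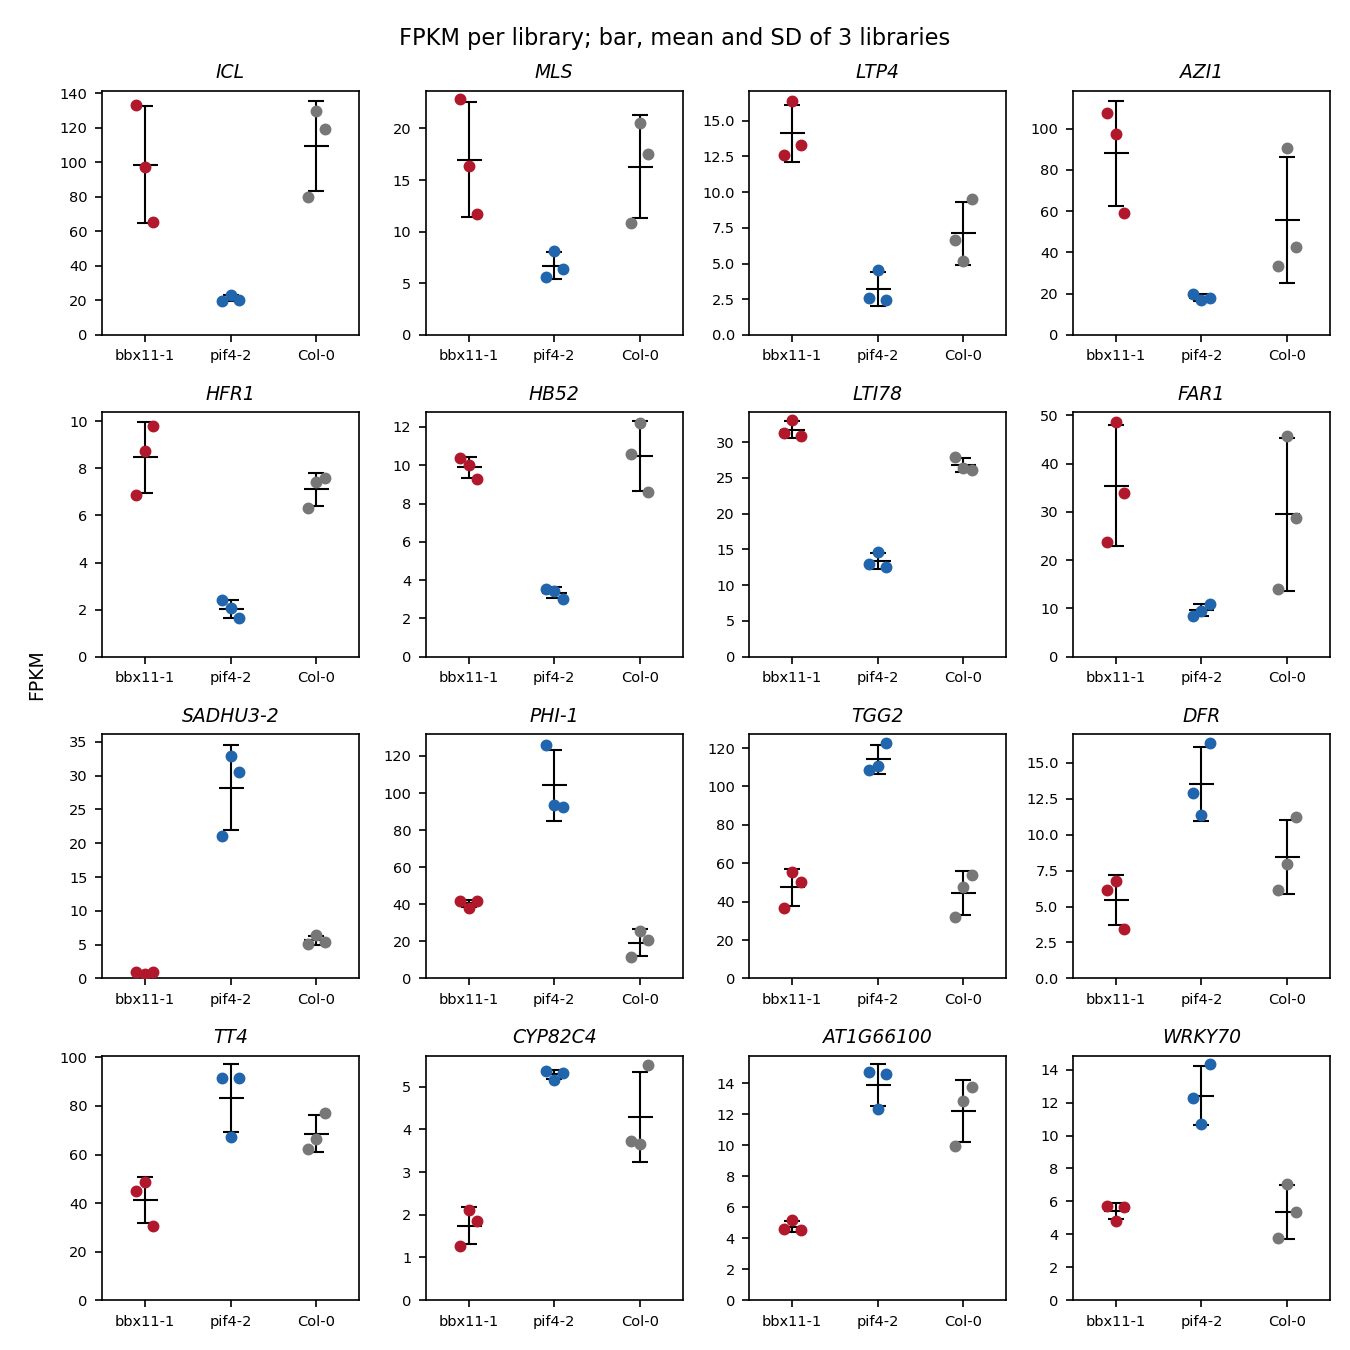
FPKM (y axis) of 16 called genes in each library of bbx11-1, pif4-2 and Col-0 (x axis), with the mean and SD of 3 libraries as bars. In every panel the bbx11-1 and pif4-2 points are apart, with SADHU3-2 at most 0.95 FPKM in bbx11-1 and at least 21.13 FPKM in pif4-2.

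MicroRNA genes, a list drawn up after the values had been seen, had 4 calls of 46 (8.7%). MIR170 was listed at 0 in pif4-2 and was at 1.67, 2.40 and 0.90 FPKM in bbx11-1, where 1 read was worth 0.484 to 0.622 FPKM. MIR171b and MIR160c were also higher in bbx11-1 and MIR395e was higher in pif4-2, and each of these 3 calls was lost when any of at least 4 single libraries was left out. With all loci above 0 tested the list held 1 call. With at most 14.2 reads in a library these levels are thin, and polyadenylated RNA over the locus is not the mature microRNA printed above. None of their known targets was called. HAM1, HAM2 and HAM3, targets of miR170 and miR171, had log2 differences of -0.06, 0.06 and -0.04, and SULTR2;1, a sulfate transporter that miR395 targets, had -0.38 (limma, adjusted p = 0.0165).

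None of 49 nuclear photosystem, 30 tetrapyrrole, 36 cytosolic ribosomal and 31 histone genes was called, where the share over all loci was 0.677%, so that lists of this size would hold few calls in any case. Their medians lay between -0.14 and -0.04, and 31, 23, 29 and 24 of them were not higher in bbx11-1. In these lists 1 photosystem gene and 1 histone gene passed the adjusted p with higher levels in pif4-2. Of 117 chloroplast-encoded loci 112 were lower in bbx11-1 (median -0.30), 4 at an adjusted p below 0.05, and the low chloroplast shares of bbx11-1 replicates 2 and 3 stand beside this. Of 61 lists and classes 27 held a call, and 89 of the 129 called loci were in none of the 61, which leave out the 6 lists drawn up after the values had been seen.

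The mean of Col-0, which entered no test, was nearer to bbx11-1 than to pif4-2 for 110 of the 129 called loci (85.3%). Of the 83 higher in bbx11-1, Col-0 lay between the mutants for 67 and above both for 15. Of the 46 higher in pif4-2 it lay between them for 26 and below both for 20. PHI-1 was of the last kind, at 11.65, 25.80 and 20.49 FPKM in Col-0, and SADHU3-2 was between, at 5.13, 6.40 and 5.38 FPKM. The sample titles call the Col-0 libraries the wild-type control for BBX11. Whether Col-0 shared a sowing or batch with either mutant is not given in the sources used here. Nearness through genotype and nearness through a shared batch therefore cannot be told apart. The same share over all tested loci was not taken. These positions are a description of means and were not tested.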

How the data were processed

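RNA was polyadenylated RNA of whole seedlings. The authors aligned reads to TAIR10 with HISAT2 and counted them with HTSeq, and deposited FPKM per locus. How FPKM were made from counts, the strand setting and the treatment of reads with several matches are not given in the sources used here; the submitters' processing notes name edgeR 3.0.8. From these values log2(FPKM + 0.5) of the 6 mutant libraries was fitted with limma 3.58.1 (R 4.3.3, intensity trend, no block), with Benjamini-Hochberg adjustment over loci whose mean reached 1 FPKM in either mutant. Loci were called below 0.05 and from 2-fold. Names and sequences came from RefSeq TAIR10.1, which matched 32835 of 33602 loci. Named were the study's red light genes, the 12 largest differences in each direction with an average log2 of at least 1, called list members (at most 6 a list), the top member of lists with no call, and loci listed at 0; others were chosen after their values were seen. Members and lists were chosen with earlier results of these data known. Depth and precision rest on 3 libraries a genotype. Alternatives covered pseudocount, filter, scaling, GC and length, libraries, block, spread and fold. The fit was tested on simulated data.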

Additional observations from a re-analysis of the deposited data

How the results depend on the processing

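With no fold threshold 599 loci were called, 341 higher in bbx11-1 and 258 higher in pif4-2, 47 lists held a call and 13.9% of promoters of genes higher in bbx11-1 held CACGTG. At 1.5-fold the counts were 359, 199 and 160. With all loci above 0 tested, 29 were higher in pif4-2 and the CACGTG share was 14%. Leaving out 1 library at a time gave 87 to 148 calls, 57 to 93 higher in bbx11-1, 30 to 60 higher in pif4-2, 21 to 31 lists with a call, Col-0 nearest bbx11-1 for 79.0% to 93.4%, and a CACGTG share of 9.26% to 26.4%. The cause of these shifts was not tested. None of the 129 that was also called in these fits, or under the other pseudocounts, scalings and fits, changed direction. Totals of those others ran from 94 (pseudocount 1 FPKM) to 151 (pseudocount 0.1 FPKM). For all 129 the libraries of the mutants did not overlap. Leaving out 1 library or changing the pseudocount could therefore not reverse their sign. The share of calls higher in bbx11-1 was 64.3% and ran from 55.4% to 70.5%. The replicate block gave 136 calls, 121 of them among the 129, and 2 in place of 3 flavonoid calls. Deviations of same-numbered libraries correlated at 0.0946, 0.0311 and -0.00323, so the numbers were not taken to pair them. With 3 libraries a genotype, genes of a few reads, such as the microRNA loci, have the least support.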

Other observations

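Grouped by annotated product, 175 families had at least 10 tested loci, and 7 of them held 2 or more calls. Ankyrin repeat proteins had 2 of 29 called, both higher in pif4-2, and S-adenosylmethionine-dependent methyltransferases 2 of 109, also higher in pif4-2. Protein phosphatase 2C proteins had 2 of 50 called, both higher in bbx11-1. Loci whose product name is the bHLH DNA-binding superfamily had 2 of 79 called, also higher in bbx11-1. BNQ3, a bHLH gene with a product name of its own, is not among the 79. It was called higher in pif4-2, with a log2 difference of -1.10 (limma, adjusted p = 0.0270). UDP-glycosyltransferases had 1 call each way among 62. Bifunctional inhibitor and lipid transfer proteins had 3 of 56 called and tetratricopeptide repeat proteins 2 of 219 (0.913%), all higher in bbx11-1. Over all tested loci 0.677% were called, and shares of 1.83% for the methyltransferases and 0.913% for the repeat proteins are near that background.

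Neighbouring genes were called together in 6 pairs, and in all 6 both genes went the same way, among them LTI65 with LTI78. Of the called loci 27 had no informative product name.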
